A study of Mus musculus with 14 samples.

Results

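The transcriptome of Smad4 KO colon epithelium was compared with that of the epithelium of WT colon when both had received DSS for 3 d, with the 3 Smad4 KO and 3 WT libraries that carry these labels, 6 of the 14 libraries of the series. DSS, a sulfated dextran, damages the lining of the colon, and both groups drank it at 2.5% until the epithelium was collected. The Smad4 KO mice carried 2 floxed Smad4 alleles and a Cre recombinase that is expressed from the villin promoter, active in the intestinal epithelium, and becomes active with tamoxifen. The remaining tissue of these mice keeps Smad4, and the controls (WT) are labelled wildtype. All mice were adults on a background enriched for C57/BL6. Cells were released from the whole colon with EDTA and polyadenylated RNA was sequenced, so that surface colonocytes, goblet cells and crypt cells of a colon were measured together. The labels name the libraries of a group replicates and say nothing further of their source, so that p-values measure the spread between these samples.

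Smad4 is the shared partner of the receptor-activated Smads of the TGF-β and BMP pathways. Ligands of both families bind serine and threonine kinase receptors, the receptors phosphorylate Smad1, Smad5 and their relatives (BMP) or Smad2 and Smad3 (TGF-β), and these enter the nucleus with Smad4 and change transcription. In the colon, BMP signals are strongest towards the surface of the crypt, where cells leave the cycle and mature, and inhibitors secreted around the crypt base keep the signal low where the stem cells divide.

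Between 18021338 and 22597494 reads per library were assigned to genes. Mitochondrial transcripts took 4.54% to 6.87% of them in WT and 4.05% to 5.20% in Smad4 KO. Normalized counts are counts scaled by TMM factors to the mean library size of these 6 libraries, log2 fold changes are given ± their standard error, and values are listed for WT replicates 1, 2 and 3 and then for Smad4 KO replicates 1, 2 and 3. Epithelial keratins and Epcam were abundant in every library, with 37898 to 40983 normalized counts of Epcam. Xist had 14643 to 18399 counts per library and the Y-linked genes Eif2s3y, Ddx3y, Kdm5d and Uty had 0, so that all 6 libraries had a female pattern. The first principal component held 32.3% of the variance and separated the genotypes, and Spearman correlations between libraries were 0.987 to 0.993 within a genotype and 0.982 to 0.988 between genotypes. WT replicate 3 carries another letter prefix in its name than the other 5 libraries, and the labels do not explain the prefix.

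Smad4 itself (ENSMUSG00000024515, chr18:73798663-73863434 of mm9) had 3578, 3851 and 3671 normalized counts in WT and 930.0, 850.3 and 903 in Smad4 KO. Every Smad4 KO library lay far below every WT library, and the spread within each group was small beside the difference (log2 fold change -2.05 ± 0.090, edgeR adjusted p = 2.0e-06).

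Of 14241 genes tested, 155 (1.09%) differed between the genotypes at an adjusted p below 0.05 in edgeR's quasi-likelihood test, 66 of them higher (0.463%) and 89 lower (0.625%) in Smad4 KO. At an unadjusted p below 0.05, 2243 genes (15.8%) differed. The Smad4 KO and WT libraries did not overlap for any of the 155, and over all genes tested 22.2% had no overlap, 10.7% with every Smad4 KO library higher and 11.5% with every one lower. Changes of at least 2-fold were found for 34 of the higher and 28 of the lower genes, and the smallest called change was 0.46 on the log2 scale. The median log2 fold change over all genes tested was 0.0044. Leaving out 1 library changed the number of genes called to 123 without WT replicate 1, 64 without WT replicate 2, 69 without WT replicate 3, and 73, 74 and 47 without Smad4 KO replicates 1, 2 and 3. Of the 155 genes, 32 were called in each of these 6 fits and 36 in none, and all 155 kept their direction in each fit that tested them. Without WT replicate 3, the library with the other name prefix, 58 of the 155 remained called. The words called, rose and fell refer to this edgeR test unless another is named. DESeq2 called 496 genes (3.49% of 14205 with an adjusted p), 153 of the 155 among them. The shares of all genes given here are the background for the counts of each list below. In whole epithelium, fewer cells of a type and less RNA per cell cannot be told apart.

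**Figure D1:**
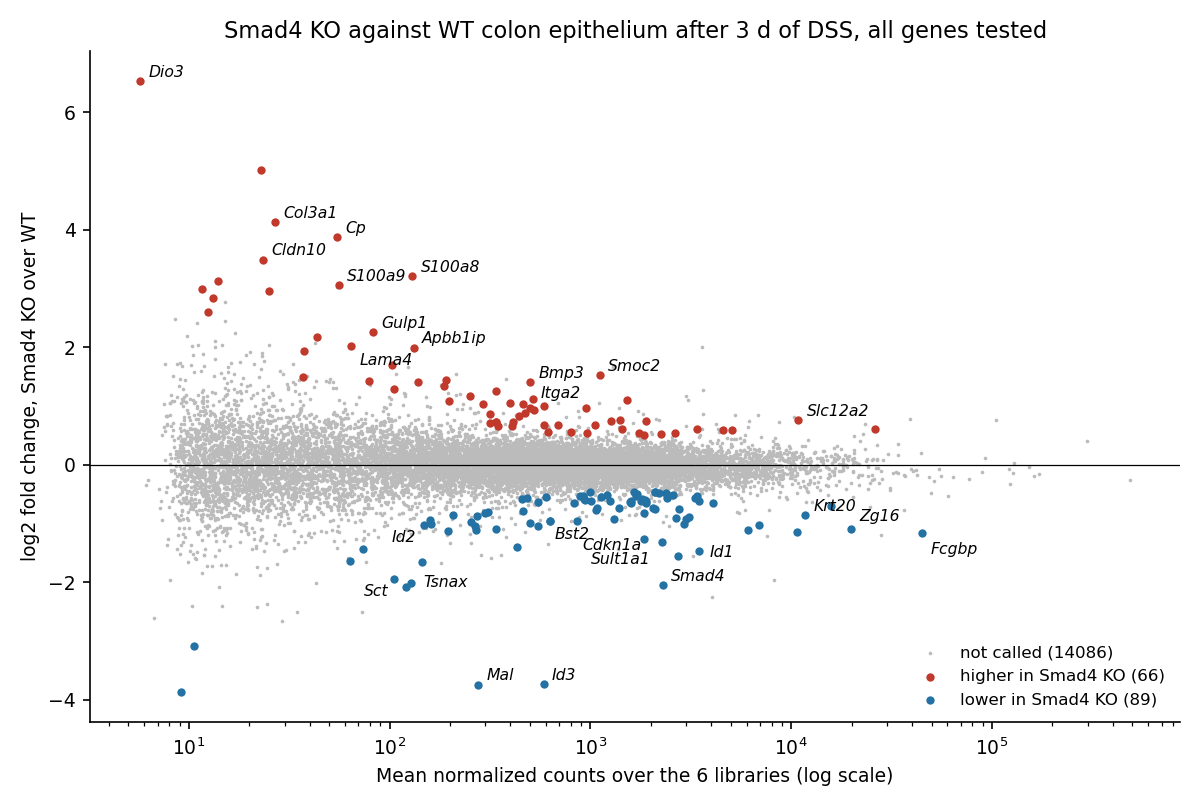
Each point is 1 of the 14241 genes tested, with the mean normalized count over the 6 libraries on a log axis and the log2 fold change of Smad4 KO over WT on the vertical axis. The 66 genes called higher are red and the 89 called lower are blue, with Mal (-3.74) and Id3 (-3.73) lowest among the called genes with a mean above 50 normalized counts and Cp (3.88) highest.

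Of the other 6 tested Smads none was called by edgeR, with 3 at an unadjusted p below 0.05 (15.8% of all genes tested) and 2 called by DESeq2 (3.49% of all genes). Smad1 and Smad5, which carry BMP signals, had log2 fold changes of -0.16 and 0.23, and Smad2 and Smad3, which carry TGF-β signals, had 0.21 and 0.06. The inhibitory Smads, which are themselves induced by these pathways, had lower values in every Smad4 KO library without passing the threshold in edgeR, and were the 2 that DESeq2 called. Smad6 had 420.3, 297 and 329 normalized counts in WT and 98.6, 193 and 219 in Smad4 KO (log2 fold change -1.03 ± 0.27, edgeR adjusted p = 0.122), and Smad7 had a log2 fold change of -0.59 ± 0.13 (edgeR adjusted p = 0.0665), with DESeq2 adjusted p-values of 0.0032 for Smad6 and 0.0067 for Smad7.

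The Id genes encode helix-loop-helix proteins that bind other transcription factors and keep them off DNA, and they are classical direct targets of BMP signalling. Id1 (ENSMUSG00000042745, chr2:152561987-152563146) had 5288, 4569 and 5424 normalized counts in WT and 1623, 1953 and 1984 in Smad4 KO, a 2.75-fold lower level (log2 fold change -1.46 ± 0.11, edgeR adjusted p = 4.1e-04). Id3 (ENSMUSG00000007872, chr4:135699412-135701670) had 1096, 849 and 1318 in WT and 44.3, 52.9 and 149 in Smad4 KO (log2 fold change -3.73 ± 0.49, edgeR adjusted p = 0.0418). The lowest WT library of Id3 was far above the highest Smad4 KO library, and the third Smad4 KO library stood above the other two. Id2 had 243, 158 and 199 in WT and 89.8, 103 and 102 in Smad4 KO (log2 fold change -1.03 ± 0.20, edgeR adjusted p = 0.0401). The call of Id1 held with each library left out, and that of Id2 held only without WT replicate 2 and that of Id3 only without Smad4 KO replicate 3, with edgeR adjusted p-values up to 0.157 and 0.133 in the other fits. Id4 had 75.4, 101 and 66.4 in WT and 57.6, 111 and 73.9 in Smad4 KO, and its groups overlapped. Of the 13 tested targets and feedback genes of the pathways, Id1, Id2 and Id3 fell, 0 rose and 10 were not called, among them Ski (log2 fold change -0.16), Skil (0.08), Smurf2 (0.25) and Tgfbi, an extracellular protein induced by TGF-β (-1.30, edgeR adjusted p = 0.0605). DESeq2 called 4 of the 13. The median of the 13 was -0.10, and it was -0.063 without WT replicate 1, -0.22 without WT replicate 2 and -0.28 without Smad4 KO replicate 2.

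The promoters of Id3 and Id2 were read from RefSeq (GRCm38.p6, a later build than the mm9 of the counts) as the 250 bases before the start site, because Smad proteins bind DNA directly at short motifs. The promoter of Id1 was not used here. The capitals mark CAGAC and GGCGCC, on either strand. Over all 27025 promoters of the table, 42.1% held CAGAC and 9.54% held GGCGCC within this distance. The Id3 sequence holds CAGAC at 167 and, on the opposite strand, at 68 bases before the start, and the Id2 sequence holds GGCGCC at 231 bases before it. Such matches describe letters and not bound sites.
Id3, chr4:136143572-136143821, plus strand: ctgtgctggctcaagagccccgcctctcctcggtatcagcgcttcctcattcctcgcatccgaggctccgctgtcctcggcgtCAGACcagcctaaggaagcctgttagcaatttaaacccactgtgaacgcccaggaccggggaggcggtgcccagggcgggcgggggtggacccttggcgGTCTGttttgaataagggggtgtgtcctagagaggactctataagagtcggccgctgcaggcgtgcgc
Id2, chr12:25096093-25096342, minus strand: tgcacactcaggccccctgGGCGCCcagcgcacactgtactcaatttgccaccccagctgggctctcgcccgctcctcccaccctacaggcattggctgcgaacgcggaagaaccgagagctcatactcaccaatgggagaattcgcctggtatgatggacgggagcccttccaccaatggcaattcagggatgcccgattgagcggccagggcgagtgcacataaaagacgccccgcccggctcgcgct

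Among the ligands and their modulators, 2 genes rose. Bmp3 (ENSMUSG00000029335, chr5:99283458-99309979), a BMP family member that antagonizes other BMPs, had 323, 259 and 245 normalized counts in WT and 669, 842 and 675 in Smad4 KO (log2 fold change 1.40 ± 0.15, edgeR adjusted p = 0.0016). Smoc2 (ENSMUSG00000023886, chr17:14416513-14541797), a matricellular protein of the crypt base, had 618, 412 and 682 in WT and 1709, 1542 and 1714 in Smad4 KO (log2 fold change 1.53 ± 0.17, edgeR adjusted p = 0.0035). In both genes the lowest Smad4 KO library was well above the highest WT library, and both were called with each library left out. Bmp2, the ligand with the most counts, had 655, 829.9 and 966 in WT and 402, 618 and 604 in Smad4 KO and was not called (edgeR adjusted p = 0.187). None of the 9 tested receptors was called by edgeR or DESeq2, and 2 had an unadjusted edgeR p below 0.05, with log2 fold changes between -0.084 and 0.44. Among those with the most counts were Bmpr1a (0.26), a type I receptor of BMPs, and Tgfbr2 (0.07) and Tgfbr1 (0.35), the receptor pair of TGF-β. Over all 45 tested genes of the pathways, 2 rose, 4 fell and the median log2 fold change was -0.00042, with 2 called higher and 2 or 3 called lower in each fit with 1 library left out.

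**Figure D2:**
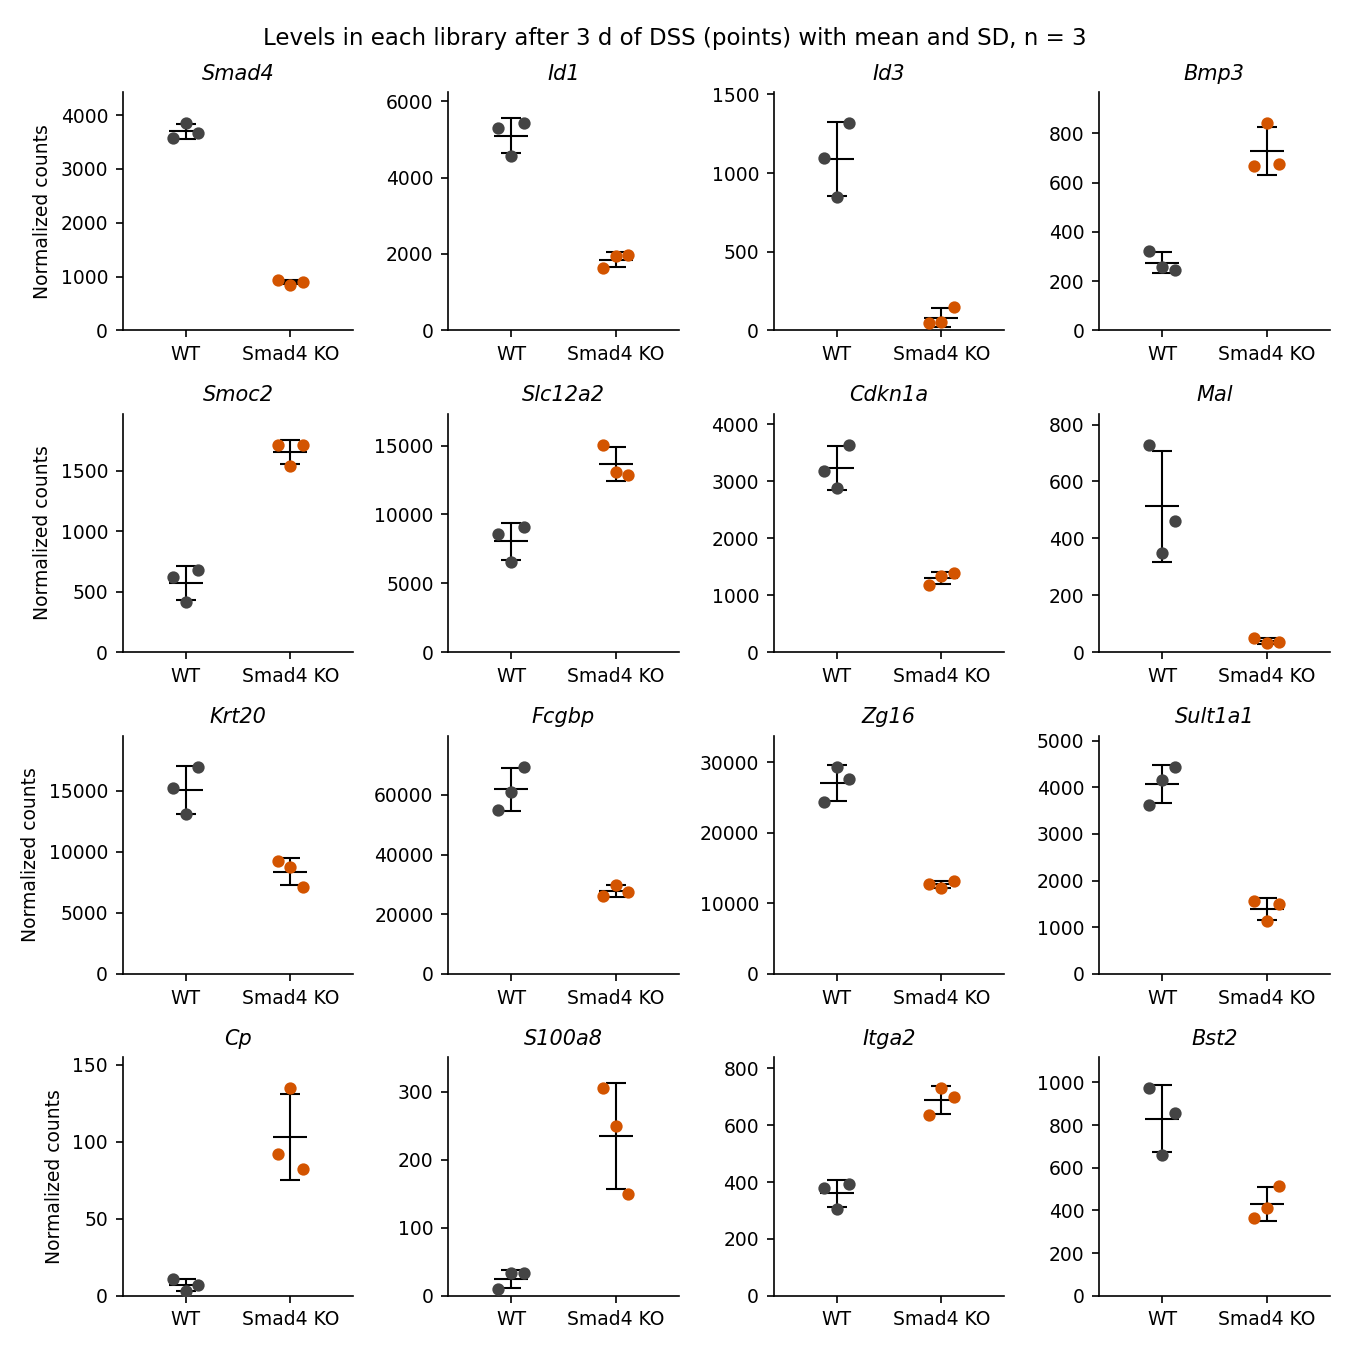
Each panel gives the normalized counts of 1 gene in the 3 WT and the 3 Smad4 KO libraries after DSS as points, with the mean and SD of each group (n = 3) in black on a linear axis from 0. The 16 genes were chosen from the 155 called, none of which had overlap between the groups, so no panel shows overlap. Over all genes tested 22.2% had no overlap.

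Crypt base stem cells divide under Wnt signals and are marked by Lgr5. Of 17 tested stem cell markers 2 rose (0.463% of all genes rose) and 0 fell. Their median log2 fold change was 0.22 (0.13 without WT replicate 1, 0.12 without WT replicate 2 and 0.14 without Smad4 KO replicate 3). DESeq2 called 3 of the 17 (3.49% of all genes), and 8 had an unadjusted edgeR p below 0.05 (15.8% of all genes). The 2 that rose were Smoc2 and Slc12a2, the basolateral sodium, potassium and chloride cotransporter of secreting crypt cells, with 8578, 6530.5 and 9084 normalized counts in WT and 15058, 13079.6 and 12847 in Smad4 KO (log2 fold change 0.76 ± 0.14, edgeR adjusted p = 0.0274). Lgr5 had 123, 54.0 and 128 in WT and 274, 249.9 and 258 in Smad4 KO, without overlap, and its adjusted p was 0.0525 (edgeR, log2 fold change 1.35 ± 0.28). Ascl2, a Wnt-dependent transcription factor of the same cells, had the opposite sign, with 125, 89.7 and 144 in WT and 73.2, 52.9 and 78.2 in Smad4 KO (edgeR adjusted p = 0.167). Prom1 (0.44), Lrig1 (0.27) and Ephb2 (0.22) were not called. None of 7 tested Wnt feedback genes and targets was called by edgeR or DESeq2, and 0 had an unadjusted edgeR p below 0.05, with the cyclin D1 gene Ccnd1 at 0.20. The call of Slc12a2 held only without WT replicate 3, at edgeR adjusted p-values up to 0.101 in the other fits with 1 library left out.

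Transcripts of the cell cycle itself were not called. Of 33 tested replication and mitosis genes 0 were called by edgeR, 0 by DESeq2, 5 had an unadjusted edgeR p below 0.05 and 5 had no overlap between the groups (3 with every Smad4 KO library higher, 9.09% against 10.7% of all genes, and 2 lower, 6.06% against 11.5%). The median log2 fold change was 0.09, and it was -0.055 without WT replicate 2, 0.20 without WT replicate 3, 0.012 without Smad4 KO replicate 1, 0.14 without Smad4 KO replicate 2 and 0.040 without Smad4 KO replicate 3. Mki67, the gene of the Ki67 antigen, had 5857, 3558 and 4156 normalized counts in WT and 3672, 3425 and 3058 in Smad4 KO (log2 fold change -0.42, edgeR adjusted p = 0.281). Top2a had a log2 fold change of -0.06 and Pcna of 0.17. Cdkn1a (ENSMUSG00000023067, chr17:29227924-29237667), which encodes the Cdk inhibitor p21, fell 2.48-fold. It had 3182, 2884 and 3639 in WT and 1178, 1336 and 1392 in Smad4 KO (log2 fold change -1.31 ± 0.11, edgeR adjusted p = 6.8e-04) and was called with each library left out. The related Cdkn1c had 243, 160.2 and 213 in WT and 73.2, 112 and 107 in Smad4 KO (edgeR adjusted p = 0.0525). Mxd1, a partner of Max that is induced as cells stop dividing, fell from 6802, 8011 and 10106 in WT to 3435, 4821 and 3318 in Smad4 KO (log2 fold change -1.11, edgeR adjusted p = 0.0274), and its call was lost without WT replicates 2 or 3 and Smad4 KO replicates 1 or 3 (edgeR adjusted p up to 0.157).

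Mature absorptive colonocytes line the surface. Of 42 tested surface colonocyte genes 6 fell (0.625% of all genes tested fell) and 0 rose. A log2 fold change below 0 was found for 33 (78.6%, against 49.3% of all genes tested), with a median of -0.21 over the 42. DESeq2 called 9 of the 42 (3.49% of all genes), and 12 had an unadjusted edgeR p below 0.05 (15.8% of all genes). Mal (ENSMUSG00000027375, chr2:127458962-127482431), a membrane proteolipid of apical transport, fell 13.3-fold, from 729, 349 and 461 normalized counts in WT to 49.9, 31.1 and 34.3 in Smad4 KO (log2 fold change -3.74 ± 0.32, edgeR adjusted p = 0.0016). Mall, a gene of the same family, fell less, from 3291, 2854 and 2959.5 in WT to 2099, 2220.2 and 2092 in Smad4 KO (log2 fold change -0.51, edgeR adjusted p = 0.0280). Krt20, a keratin of differentiated cells, had 15168, 13054 and 16957 in WT and 9197, 8773 and 7089 in Smad4 KO (log2 fold change -0.85 ± 0.13, edgeR adjusted p = 0.0152). Car4, a membrane-bound carbonic anhydrase, had a log2 fold change of -1.03, the water channel Aqp8 of -0.9996 and the brush border protein Ceacam20 of -0.60, with edgeR adjusted p-values of 0.0408, 0.0423 and 0.0245. Members with very many counts, such as Muc13 (-0.21) and Muc3 (-0.48), were not called. Mal was called with each library left out. Krt20 lost its call without WT replicate 3 or Smad4 KO replicate 3, and the other 4 lost theirs in at least 4 of the 6 fits (edgeR adjusted p up to 0.159). The number of colonocyte genes that fell was 3 without any 1 of the other 4 libraries and 1 without WT replicate 3 or Smad4 KO replicate 3. The summed level of 13 markers of colon epithelium was 555868 to 619436 normalized counts in WT and 534982 to 547364 in Smad4 KO, without overlap.

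Goblet cells secrete the mucus that covers the surface. Of 17 tested goblet cell genes 2 fell (0.625% of all genes fell) and 0 rose. Their median was -0.06 (-0.13 without Smad4 KO replicate 3 to -0.021 without Smad4 KO replicate 2). DESeq2 called 5 of the 17 (3.49% of all genes), and 9 had an unadjusted edgeR p below 0.05 (15.8% of all genes). Fcgbp, a large protein that is cross-linked with the mucin in the mucus, had 54866, 61154 and 69516 normalized counts in WT and 26079, 29898 and 27428 in Smad4 KO (log2 fold change -1.15 ± 0.12, edgeR adjusted p = 0.0018). Zg16, a lectin that keeps Gram-positive bacteria away from the epithelium, had 24311, 29354 and 27559.7 in WT and 12704, 12172 and 13110.2 in Smad4 KO (log2 fold change -1.10 ± 0.11, edgeR adjusted p = 0.0016). Every Smad4 KO library of both lay far below every WT library, and both were called with each library left out. Muc2, the main mucin, had 210934, 159682 and 173468 in WT and 149656, 172437 and 164952 in Smad4 KO and overlapped (edgeR adjusted p = 0.602), and Agr2, which folds it, had a log2 fold change of 0.36. None of 25 tested enteroendocrine genes and none of 12 tested tuft cell genes was called by edgeR, with 4 and 1 at an unadjusted p below 0.05 and 1 and 0 called by DESeq2 (medians 0.06 and -0.27). The enteroendocrine median ranged from -0.13 without Smad4 KO replicate 2 to 0.082 without WT replicate 2, and the tuft cell median was -0.16 without WT replicate 3. Sct, the gene of the hormone secretin, was outside these lists and fell from 128, 149.6 and 307 in WT to 64.3, 35.3 and 38.6 in Smad4 KO (log2 fold change -2.08 ± 0.38, edgeR adjusted p = 0.0401), with a call that held only without WT replicate 1 (edgeR adjusted p up to 0.178 in the other fits). Rab3b, a GTPase of regulated secretion, fell from 241, 116 and 146 in WT to 33.3, 47.7 and 49.3 in Smad4 KO (log2 fold change -1.94, edgeR adjusted p = 0.0147), and its call was lost without any 1 Smad4 KO library (up to 0.0689 in edgeR).

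Several genes of metabolism and transport fell. Sult1a1 (ENSMUSG00000030711, chr7:133816379-133819946), a sulfotransferase of phenolic compounds, had 3624, 4148 and 4442 normalized counts in WT and 1554, 1123 and 1505 in Smad4 KO (log2 fold change -1.55 ± 0.13, edgeR adjusted p = 7.3e-04). Acer1, an alkaline ceramidase, had 656, 654 and 565 in WT and 227, 209 and 279 in Smad4 KO (log2 fold change -1.39, edgeR adjusted p = 0.0016). Ano1, a calcium-activated chloride channel, had 2414, 2695 and 2735 in WT and 888, 1162 and 1208 in Smad4 KO (log2 fold change -1.27, edgeR adjusted p = 0.0016). In these genes every WT library stood far above every Smad4 KO library. Slc13a2, a sodium-coupled carrier of dicarboxylates, had a log2 fold change of -0.93, the organic anion carrier Slco2b1 of -1.65, the actin-severing protein gene Scin of -0.91 and the endocytic receptor Lrp1 of -0.90, with edgeR adjusted p-values of 0.0016, 0.0056, 0.0039 and 0.0023. Selenbp1, which oxidizes methanethiol and has a near-identical copy that could share its reads, fell from 14662, 13259 and 16123 in WT to 6707, 5236 and 8041 in Smad4 KO (log2 fold change -1.14, edgeR adjusted p = 0.0071). All of these were called with each library left out. None of 18 tested genes of ketogenesis and fatty acid oxidation and none of 16 of cholesterol synthesis and uptake was called by edgeR or DESeq2, with 2 and 0 at an unadjusted edgeR p below 0.05 (medians -0.07 and 0.01, and between -0.096 and 0.073 with 1 library left out). The cholesterol exporters Abca1 and Abcg1 rose, from 58.0, 32.8 and 37.2 in WT to 139.7, 116 and 90.0 in Smad4 KO (log2 fold change 1.43, edgeR adjusted p = 0.0408) and from 48.3, 57.9 and 76.2 in WT to 165, 136 and 148 in Smad4 KO (log2 fold change 1.29, edgeR adjusted p = 0.0274), and the calls held only without WT replicate 1 for Abca1 and only without WT replicate 3 for Abcg1.

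Interferons induce antiviral proteins and the presentation of antigen, and the gut epithelium responds to both in inflammation. Of 45 tested interferon-induced genes 4 fell (0.625% of all genes tested fell) and 0 rose. Every Smad4 KO library lay below every WT library for 19 of them (42.2%, against 11.5% of all genes tested). A log2 fold change below 0 was found for 42 (49.3% of all genes), with a median of -0.39 over the list. DESeq2 called 13 of the 45 (3.49% of all genes), and 26 had an unadjusted edgeR p below 0.05 (15.8% of all genes). Bst2, which encodes tetherin, had 972, 660.1 and 858 normalized counts in WT and 364, 409.6 and 516 in Smad4 KO (log2 fold change -0.95 ± 0.17, edgeR adjusted p = 0.0280). Irgm2, an immunity-related GTPase, had 2110.2, 1799.8 and 2532 in WT and 1493, 1333 and 1401 in Smad4 KO (log2 fold change -0.61, edgeR adjusted p = 0.0443). The nucleic acid sensor Zbp1 had 2369, 2037 and 2096 in WT and 1564, 1363 and 1439.9 in Smad4 KO (log2 fold change -0.57, edgeR adjusted p = 0.0249). Stat2, which carries the signal of type I interferon, had 1907, 1904 and 1934 in WT and 1302, 1453 and 1428 in Smad4 KO (log2 fold change -0.46, edgeR adjusted p = 0.0384). The groups were apart in each of the 4 genes. Stat2 was not called in any of the 6 fits with 1 library left out (edgeR adjusted p up to 0.156). The number of called members of the list was 4 without WT replicate 2, 1 without Smad4 KO replicates 1 or 3, and 0 without WT replicates 1 or 3 or Smad4 KO replicate 2, while the median stayed between -0.52 and -0.35. Other members with larger folds had a wider spread between libraries. Oas3 had 811, 290.5 and 733 in WT and 167, 245 and 276 in Smad4 KO (log2 fold change -1.41 ± 0.42, edgeR adjusted p = 0.210), and Isg15 had 650.3, 367 and 661 in WT and 196, 292 and 348 in Smad4 KO (edgeR adjusted p = 0.150). The regulators Irf1 (-0.13) and Irf8 (-0.20) were not called. Outside the list, Samhd1, which restricts viruses by depleting nucleotides, fell from 2253, 2427 and 3038 in WT to 1452, 1702 and 1498 in Smad4 KO (log2 fold change -0.73, edgeR adjusted p = 0.0209), and lost its call without WT replicates 2 or 3 and Smad4 KO replicates 1 or 3.

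The genes of antigen presentation mostly had the same sign without passing the test in edgeR. Of 17 tested MHC class I genes 0 were called by edgeR, 1 was called by DESeq2, 6 had an unadjusted edgeR p below 0.05, 3 had every Smad4 KO library below every WT library (17.6%, against 11.5% of all genes tested), and 16 had a log2 fold change below 0, with a median of -0.38 that was -0.17 without WT replicate 3. H2-D1 had 34372, 30958 and 41719.6 normalized counts in WT and 19826, 32159 and 27619.5 in Smad4 KO (log2 fold change -0.43, edgeR adjusted p = 0.289), and B2m had a log2 fold change of -0.17. Of 9 tested class II genes 0 were called by edgeR, 1 was called by DESeq2, 2 had an unadjusted edgeR p below 0.05 and 7 were below 0, with a median of -0.77 that was -0.30 without WT replicate 3. Cd74, the invariant chain, had 32468, 38884 and 66805 in WT and 27229.5, 27988 and 25561 in Smad4 KO (log2 fold change -0.77 ± 0.24, edgeR adjusted p = 0.196), where WT replicate 3 stood far above the other 5 libraries. H2-Ab1 showed the same library highest, with 4858, 8793 and 18184 in WT and 6139.5, 4018 and 3624 in Smad4 KO (edgeR adjusted p = 0.403). The class I and II genes have close paralogs that can share reads, so that the values of single members are uncertain.

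Promoters of Bst2, Irgm2 and Stat2, 3 of the 4 called interferon genes, were read in the same way (that of Zbp1 was not used here), because interferon-activated complexes bind pairs of GAAA. The capitals mark GAAANNGAAA on either strand, which 3.04% of all 27025 promoters held within 250 bases. Bst2 has 2 overlapping matches, whose first bases lie 130 and 124 bases before the start, Irgm2 has 1 at 64 bases, and Stat2 has 1 on the opposite strand at 222 bases. These genes were taken from a list of interferon-induced genes, so their matches are no test against the share of all promoters. The matches describe letters and not bound sites.
Bst2, chr8:71537473-71537722, minus strand: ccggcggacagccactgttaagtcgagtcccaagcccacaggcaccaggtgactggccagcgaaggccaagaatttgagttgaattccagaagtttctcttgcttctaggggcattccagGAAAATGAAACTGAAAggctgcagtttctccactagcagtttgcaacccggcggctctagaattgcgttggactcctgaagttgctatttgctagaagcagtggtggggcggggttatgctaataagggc
Irgm2, chr11:58214727-58214976, plus strand: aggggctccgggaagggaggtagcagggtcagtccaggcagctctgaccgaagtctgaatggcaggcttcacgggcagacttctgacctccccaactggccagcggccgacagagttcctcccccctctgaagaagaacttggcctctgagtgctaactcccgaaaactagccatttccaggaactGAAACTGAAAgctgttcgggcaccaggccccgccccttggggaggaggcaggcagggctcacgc
Stat2, chr10:128270248-128270497, plus strand: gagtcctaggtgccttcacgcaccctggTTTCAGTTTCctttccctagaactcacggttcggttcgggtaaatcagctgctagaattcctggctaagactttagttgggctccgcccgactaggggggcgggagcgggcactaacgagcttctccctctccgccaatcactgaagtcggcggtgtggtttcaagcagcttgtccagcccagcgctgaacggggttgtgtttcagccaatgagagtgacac

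Among 34 tested antimicrobial and acute phase genes 3 rose and 1 fell (Zg16), where 0.463% of all genes rose and 0.625% fell. Their median was 0.11 (-0.016 without WT replicate 1 to 0.23 without Smad4 KO replicate 3). DESeq2 called 5 of the 34 (3.49% of all genes), and 7 had an unadjusted edgeR p below 0.05 (15.8% of all genes). Cp (ENSMUSG00000003617, chr3:19857054-19909145), the copper-carrying ferroxidase ceruloplasmin, had 10.6, 2.90 and 7.09 normalized counts in WT and 92.0, 135 and 82.5 in Smad4 KO, a 14.8-fold higher level (log2 fold change 3.88 ± 0.41, edgeR adjusted p = 0.0016). S100a8 and S100a9 encode the subunits of calprotectin, a metal-binding protein of neutrophils and inflamed epithelium. S100a8 had 9.66, 32.8 and 32.8 in WT and 305, 249 and 149.99 in Smad4 KO (log2 fold change 3.21 ± 0.43, edgeR adjusted p = 0.0125), and S100a9 had 4.83, 16.4 and 14.2 in WT and 122, 138 and 39.6 in Smad4 KO (log2 fold change 3.06 ± 0.55, edgeR adjusted p = 0.0394). In both, the third Smad4 KO library was the lowest of its group and still above every WT library. Cp was called with each library left out. S100a8 lost its call without WT replicate 2 or Smad4 KO replicate 2 (edgeR adjusted p up to 0.0514), and S100a9 kept it only without Smad4 KO replicate 3 (up to 0.116 in edgeR). Of the 10 neutrophil markers, Mpo, Elane, Ngp and Mmp8 had 0 counts in all 6 libraries, and the summed level, most of it Ly6g, was 1009 to 1656 normalized counts in WT and 1327 to 1533 in Smad4 KO. Pigr, the carrier of IgA and one of the most abundant members, had a log2 fold change of -0.32 and was not called. The Reg3b and Reg3g groups overlapped, with 115295, 86915 and 30426 in WT and 222981, 111369 and 59793 in Smad4 KO for Reg3b. None of 19 tested chemokines and cytokines was called by edgeR, 2 were called by DESeq2 (3.49% of all genes), and 6 had an unadjusted edgeR p below 0.05 (15.8% of all genes). Every Smad4 KO library was higher for 4 of the 19 (21.1%, against 10.7% of all genes) and lower for 2 (10.5%, against 11.5%). Of 16 tested NF-κB feedback genes 1 fell, Tnip1, which restrains this pathway, from 2034, 1996 and 1926 in WT to 1333, 1508 and 1408 in Smad4 KO (log2 fold change -0.49, edgeR adjusted p = 0.0309), and its call held only without Smad4 KO replicate 2 (edgeR adjusted p up to 0.157 in the other fits).

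Collagens, laminins and matrix glycoproteins form the scaffold beneath and around the epithelium. Of 139 matrix genes listed in the counts, 56 were tested, and 7 rose (0.463% of all genes rose) and 0 fell. DESeq2 called 13 of the 56 (3.49% of all genes), and 21 had an unadjusted edgeR p below 0.05 (15.8% of all genes). The 7 that rose were Smoc2, the collagen genes Col1a1, Col1a2, Col3a1 and Col4a2, the laminin chain Lama4 and Sparc, a collagen-binding glycoprotein. Apart from Smoc2 they had under 40 normalized counts in every WT library. Col1a1, Col1a2, Col3a1 and Sparc, with Col6a1, which was not called, reached the minimum of 10 counts in the 3 Smad4 KO libraries and in none of WT, so that they could enter the test only as higher in Smad4 KO. Of the 29 matrix genes with a mean of at least 50 normalized counts over the 6 libraries, 2 rose, Smoc2 and Lama4, and the median was 0.088 on the log2 scale. Of all genes with such a mean 0.466% rose. Lama4 stayed under 40 normalized counts in every WT library and reached this mean through its Smad4 KO values. Of these 2 genes only Smoc2 had such counts in both genotypes. Lama4 had 24.2, 14.5 and 37.2 normalized counts in WT and 84.2, 115 and 112 in Smad4 KO (log2 fold change 2.03 ± 0.33, edgeR adjusted p = 0.0193). Sparc had 1.93, 0.965 and 4.43 in WT and 21.1, 19.7 and 21.4 in Smad4 KO (log2 fold change 3.00 ± 0.54, edgeR adjusted p = 0.0274). Col3a1, the most abundant of the fibrillar collagens in Smad4 KO, had 1.93, 0.965 and 5.31 in WT and 45.4, 56.0 and 52.5 in Smad4 KO (edgeR adjusted p = 0.0035). The number of called matrix genes was 6 without WT replicate 3, 3 without WT replicate 1, 2 without WT replicate 2, 2 without Smad4 KO replicates 1 or 3 and 1 without Smad4 KO replicate 2. In the fits without a Smad4 KO library, Col1a1, Col1a2, Col3a1 and Sparc did not reach the minimum of 10 counts in 3 libraries and were not tested. Without 1 WT library, Col3a1 kept its call each time and Col1a1 lost it each time (edgeR adjusted p 0.0623 to 0.0795). Col1a2 and Sparc kept theirs only without WT replicate 3 (up to 0.0783 in edgeR). Col4a2 was called in none of the 6 fits (edgeR adjusted p 0.0508 to 0.152). Lama4 lost its call without WT replicate 2 or Smad4 KO replicates 2 or 3 (up to 0.0974 in edgeR). Matrix genes with the most counts, such as Thbs4 (-0.32), Lamb3 (-0.13) and Agrn (-0.25), were not called, and Hspg2, the gene of the basement membrane proteoglycan perlecan, had 1496, 1256 and 939.9 in WT and 2028, 2392 and 1648 in Smad4 KO (edgeR adjusted p = 0.123). Of 11 tested integrin subunits 1 rose, Itga2, the α subunit of a collagen receptor, with 379.7, 307 and 394 in WT and 635, 730.0 and 699.6 in Smad4 KO (log2 fold change 0.93 ± 0.13, edgeR adjusted p = 0.0076). Its call was lost without Smad4 KO replicate 3 (edgeR adjusted p = 0.0517). Pxdn, a peroxidase that cross-links basement membrane collagen and was not in the lists, fell from 119, 56.9 and 114 in WT to 32.1, 36.3 and 24.6 in Smad4 KO (log2 fold change -1.64, edgeR adjusted p = 0.0428), and its call held only without WT replicate 2.

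Fibroblast markers, many of them matrix genes themselves, had a higher sum in Smad4 KO. The summed level of the 12 fibroblast markers, which include Col1a1, Col1a2 and Col3a1, was 343 to 489.9 normalized counts in WT and 591 to 720.5 in Smad4 KO, without overlap. Of the 12 markers 8 were tested, and the 3 that rose are the collagens that reached the count minimum in Smad4 KO alone. None of the 12 was at 0 in all 6 libraries. In the fits without a Smad4 KO library 4 of the 12 were tested and 0 were called. Pdgfra had 0, 1 and 0 counts in WT and 0, 0 and 8 in Smad4 KO, and Lum, another defining gene, had 1 count in the 6 libraries. Decorin (Dcn) had 0, 9.65 and 25.7 normalized counts in WT and 185, 79.8 and 29.998 in Smad4 KO (edgeR adjusted p = 0.287). Of the 12 markers 7 are in the matrix lists too, and the other 5 (Pdgfra, Pdgfrb, Dpt, Vim and Thy1) summed to 322 to 439 normalized counts in WT and 403 to 431 in Smad4 KO, with overlap. Vim (0.21) and Pdgfrb (0.08), which other cells express too, held most of that sum and were not called. The part of fibroblast RNA in the matrix result was not tested. Summed markers of smooth muscle, endothelium, macrophages, T cells, B cells, leukocytes in general, glia, adipocytes and blood overlapped between the groups.

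**Figure D3:**
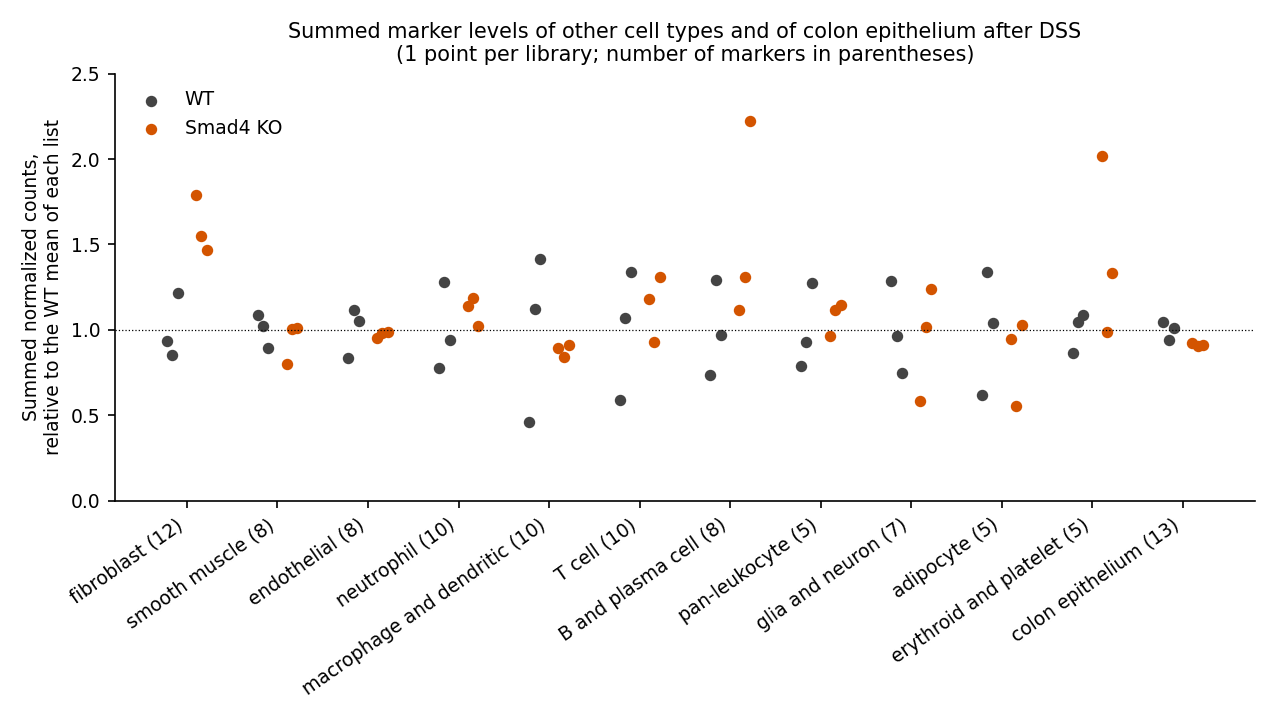
Summed normalized counts of the markers of each cell type in each library, divided by the mean of the 3 WT libraries, on a linear axis. The sum of the fibroblast markers is higher in all 3 Smad4 KO libraries (591 to 720.5 against 343 to 489.9 normalized counts in WT). The 5 fibroblast markers outside the matrix lists overlap (403 to 431 in Smad4 KO and 322 to 439 in WT). The colon epithelium markers are slightly lower in Smad4 KO, and the other cell types overlap.

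Genes outside the lists included further large changes. Apbb1ip, which links Rap1 to integrin activation, rose from 49.3, 39.6 and 69.1 normalized counts in WT to 208, 232 and 193 in Smad4 KO (log2 fold change 2.00 ± 0.23, edgeR adjusted p = 0.0034). Gulp1, an adaptor of engulfment receptors, rose from 17.4, 34.7 and 32.8 in WT to 136, 149 and 123 in Smad4 KO (log2 fold change 2.26 ± 0.28, edgeR adjusted p = 0.0046). Podxl, a sialomucin of apical membranes, rose from 52.2, 56.9 and 36.3 in WT to 136, 179 and 155 in Smad4 KO (log2 fold change 1.70, edgeR adjusted p = 0.0082). No library of one genotype reached the range of the other in these genes. Nrp1, a co-receptor of semaphorins and VEGF, rose from 162, 157 and 147 in WT to 386, 342 and 320.3 in Smad4 KO (log2 fold change 1.17, edgeR adjusted p = 0.0044), and Mboat2, an acyltransferase of lysophospholipids, from 273, 377 and 327 in WT to 743, 752 and 646 in Smad4 KO (log2 fold change 1.13, edgeR adjusted p = 0.0044). B3galt2, a galactosyltransferase, had a log2 fold change of 1.44 (edgeR adjusted p = 0.0115). All of these were called with each library left out. Eya2 (1.41), a transcriptional cofactor with phosphatase activity, lost its call without Smad4 KO replicate 2 (edgeR adjusted p = 0.0514), and Greb1l (1.26) lost it without WT replicate 2 or any 1 Smad4 KO library. The growth factor gene Pdgfa rose from 874, 1229 and 801 in WT to 1822, 2308 and 2086 in Smad4 KO (log2 fold change 1.10, edgeR adjusted p = 0.0152) and lost its call without Smad4 KO replicates 2 or 3 (up to 0.0689 in edgeR).

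Some genes were nearly silent in one genotype. Dio3, which encodes the deiodinase that inactivates thyroid hormone, had 0 counts in each WT library and 10, 11 and 11 counts in Smad4 KO, at least 12.2-fold higher when the WT group is set to 3 counts over its libraries (edgeR adjusted p = 0.0274). Its antisense neighbour Dio3os had 2.90, 0 and 0.886 normalized counts in WT and 17.7, 46.7 and 68.6 in Smad4 KO (edgeR adjusted p = 0.0147), and reads of both genes cannot be told apart where they overlap, since the strand setting of the counting is not given in the sources used here. Cldn10, a claudin, had 1.93, 2.90 and 6.20 in WT and 36.6, 61.2 and 32.1 in Smad4 KO (log2 fold change 3.50, edgeR adjusted p = 0.0088). Angptl2, a secreted angiopoietin-like protein, had 6.76, 0.965 and 1.77 in WT and 19.95, 24.9 and 24.6 in Smad4 KO (edgeR adjusted p = 0.0449). In the other direction, Kcnk10, a potassium channel, had 21.3, 18.3 and 17.7 in WT and 2.22, 2.07 and 2.14 in Smad4 KO (log2 fold change -3.08, edgeR adjusted p = 0.0182), and Hamp2, a relative of hepcidin with a close paralog, had 11.6, 27.0 and 13.3 in WT and 0, 2.07 and 1.07 in Smad4 KO (edgeR adjusted p = 0.0396). Dio3, Dio3os, Cldn10 and Angptl2 reached the count minimum in Smad4 KO libraries alone, so that they could enter the test only as higher in Smad4 KO. Kcnk10 and Hamp2 reached it in WT libraries alone and could enter only as lower. At these low counts 5 of the 6 genes lost their call or were not tested without some WT library, and each of the 6 without some Smad4 KO library. Cldn2, a pore-forming claudin of the crypt, was abundant and rose from 4065, 3388 and 4613 in WT to 6280.3, 5995 and 6012 in Smad4 KO (log2 fold change 0.60, edgeR adjusted p = 0.0401), the 1 edgeR call among 16 tested tight junction genes of a list that leaves out Cldn10, and it held only without WT replicate 3 (edgeR adjusted p up to 0.157 in the other fits). DESeq2 called 4 of the 16 (3.49% of all genes). A log2 fold change below 0 was found for 11 of the 16 (68.8%, against 49.3% of all genes), with a median of -0.078. Every Smad4 KO library was lower for 6 (37.5%, against 11.5% of all genes) and higher for 1 (6.25%, against 10.7%). None of 12 tested genes of adherens junctions and desmosomes was called by edgeR or DESeq2, 2 had an unadjusted edgeR p below 0.05, with Cdh1, the gene of E-cadherin, at -0.34 (edgeR adjusted p = 0.256).

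Called genes of the other lists included transcription factors. Npas2, a partner in the circadian clock, fell from 432, 309.8 and 330.4 normalized counts in WT to 162, 183 and 177 in Smad4 KO (log2 fold change -1.04 ± 0.16, edgeR adjusted p = 0.0147). The other 13 tested clock genes were not called by edgeR, and DESeq2 called 3 of the 14. The median of the 14 was 0.30 (0.18 without WT replicate 1). Klf6, an early response factor, fell from 3029, 2578 and 3041 in WT to 1813, 2209 and 1832 in Smad4 KO (log2 fold change -0.56, edgeR adjusted p = 0.0396), the 1 edgeR call among 16 tested immediate early genes, of which DESeq2 called 3. Their median was -0.20, and it was -0.30 without WT replicate 1, -0.11 without WT replicate 2, -0.36 without Smad4 KO replicate 2 and -0.13 without Smad4 KO replicate 3. Klf4, a factor of differentiated surface cells on the same list, had 11569, 12296 and 13303 in WT and 8495, 9790.2 and 8349 in Smad4 KO (edgeR adjusted p = 0.0665). The call of Npas2 was lost without Smad4 KO replicates 1 or 3 (edgeR adjusted p up to 0.0824), and that of Klf6 held only without Smad4 KO replicate 2 (up to 0.201 in edgeR). Tsnax, a partner of the RNA-binding protein translin, fell from 146, 212 and 255 in WT to 44.3, 73.6 and 34.3 in Smad4 KO (log2 fold change -2.01, edgeR adjusted p = 0.0147), with the call lost without WT replicate 2 and without Smad4 KO replicates 1 or 3.

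The remaining lists held few edgeR calls. None of 24 tested genes of the fetal-like repair state and of YAP, 14 of the unfolded protein response, 10 heat shock genes, 27 Hox and regional genes or 10 matrix proteases and inhibitors was called by edgeR, and their medians lay between -0.06 and 0.06. With 1 library left out they ranged from -0.27 for the proteases and inhibitors to 0.23 for the unfolded protein response, without WT replicates 3 and 2. At an unadjusted edgeR p below 0.05 these lists had 6, 6, 1, 4 and 2 genes in that order, and DESeq2 called 5, 0, 0, 1 and 1. Over all genes 15.8% had such a p and DESeq2 called 3.49%. Limma voom called 0 genes in each of the lists without an edgeR call. Of 14 tested keratins and squamous genes, Krt20 was the 1 edgeR call and DESeq2 called 2. Of the repair genes, Anxa1 had 3252, 2635 and 2634 normalized counts in WT and 5217, 3744 and 4112 in Smad4 KO (edgeR adjusted p = 0.0660), and Krt7 had 4455, 5046 and 4589 in WT and 6005, 6429 and 6984 in Smad4 KO (edgeR adjusted p = 0.0620), without overlap. By position, 7 of 348 tested genes of chromosome 18, which carries Smad4, were called (2.01%, against 1.09% of all genes). Smad4 itself was 1 of the 7. Mib1, Slc12a2, Afap1l1, Svil and Greb1l were higher, and Smad4 and Sema6a were lower. Shares were close to this on chromosome 1 (15 of 805, 1.86%) and chromosome 6 (13 of 698, 1.86%), and chromosome 16 had 0 of 464.

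**Figure D4:**
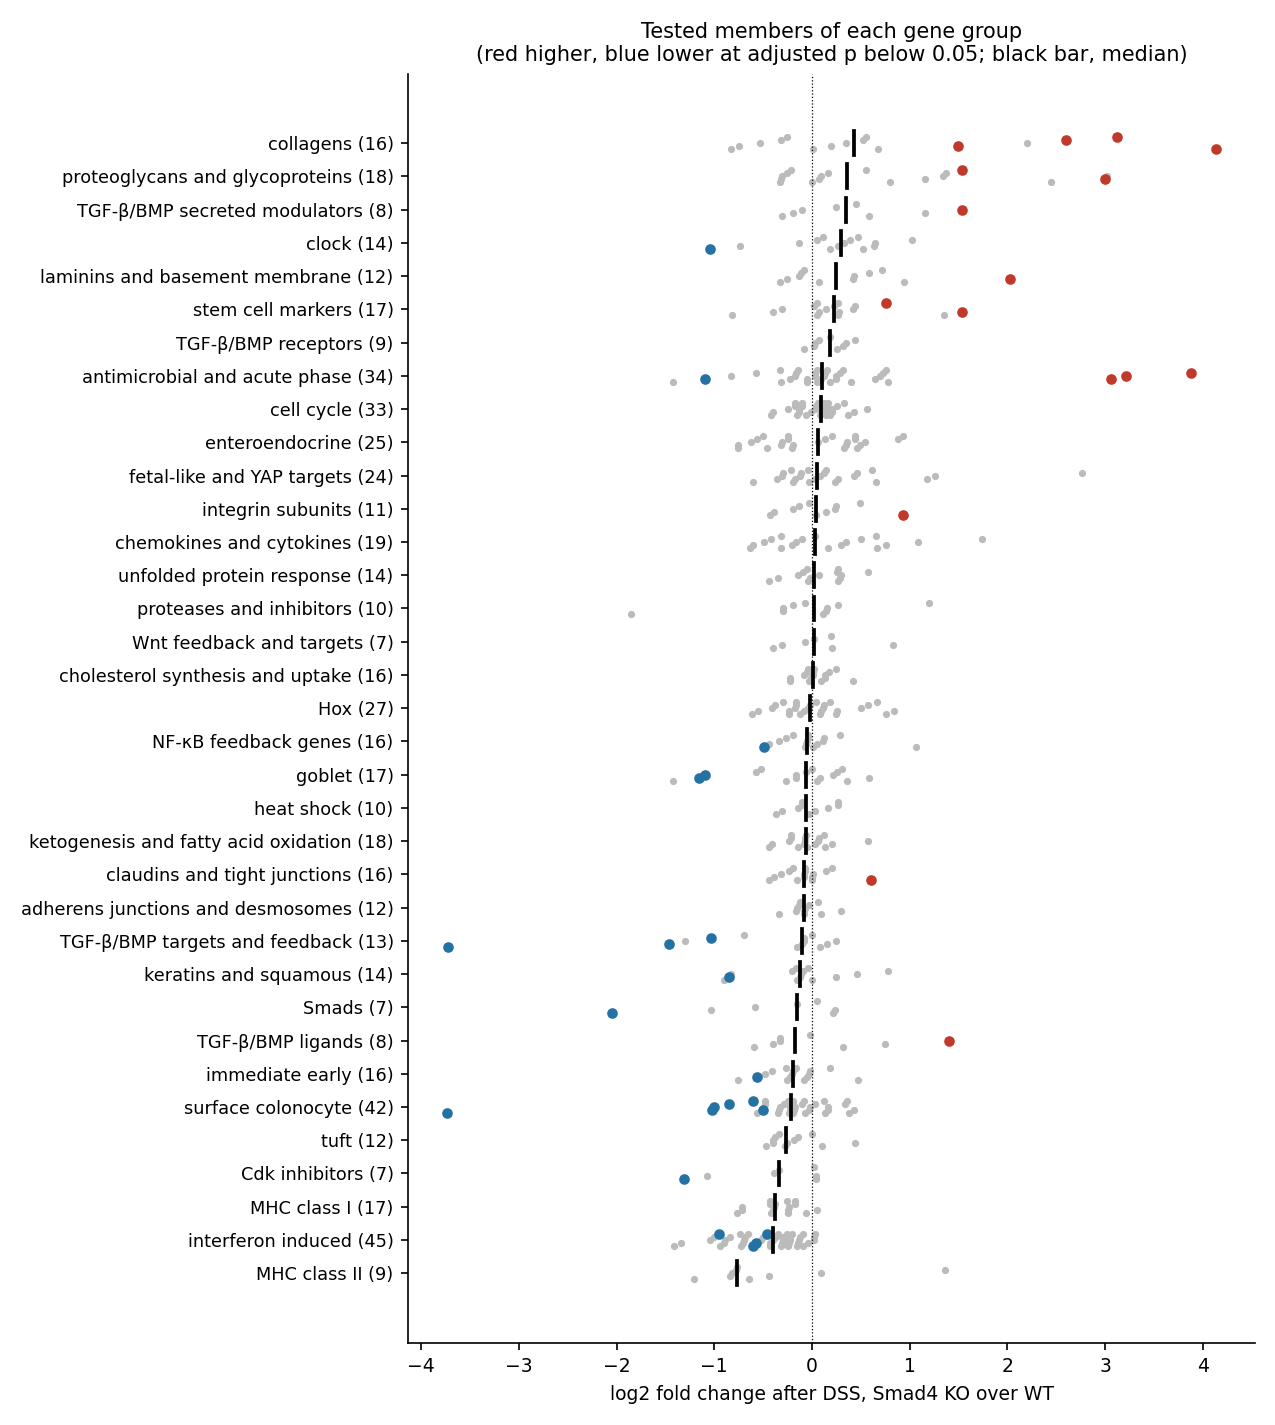
Each row is a gene group with at least 5 tested members (number in parentheses), ordered by its median, and each point is the log2 fold change of Smad4 KO over WT after DSS of 1 member. Red and blue points passed an adjusted p of 0.05 in edgeR, black bars are medians, and interferon and MHC genes lie at the lower end. The row of collagens holds 4 members that could enter only as higher in Smad4 KO, and its median of 0.43 was 0.090, 0.039 and 0.16 without Smad4 KO replicates 1, 2 and 3, where they were not tested.

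The water libraries of the series share none with the DSS comparison, so the 155 genes could be read in them. The groups on water had the same genotypes without DSS, with 4 libraries each. The library labelled Smad4 KO water replicate 1 had 3031 normalized counts of Smad4, within the 2283 to 3057 of WT on water, against 673 to 900.4 in the other 3 labelled Smad4 KO, and values are given with and without it. Mitochondrial transcripts took 4.83% to 32.8% of the counts on water, and their part in the water values was not tested. On water edgeR called 1 of 14568 genes with all 8 libraries (0.00686%) and 17 of 14383 without that library (0.118%). With 8 libraries, 61 of 65 tested genes that rose after DSS had a log2 fold change above 0 on water (93.8%, against 49.6% of all genes tested in both), and 38 of them had an unadjusted p below 0.05 (11.1% of all genes on water). Of the 89 genes that fell after DSS, 76 were below 0 on water (85.4%, against 50.4%), and 36 had an unadjusted p below 0.05 (9.8% of all genes). Without that library 58 of 63 genes that rose were above 0 (49.4% of all genes) and 75 of 89 that fell were below it (50.6% of all genes). At an unadjusted p below 0.05 there were 37 (9.64% of all genes were higher) and 43 (9.14% were lower) of them, and 7 of the genes that fell were called on water too (0.111% of all genes were called lower). With all 8 water libraries, the median log2 fold changes were 1.03 after DSS and 0.89 on water for the 65 tested genes that rose. For the 89 that fell they were -0.79 and -0.54. When the library with Smad4 at the WT level was left out, the medians were 0.999 after DSS and 0.98 on water for the 63 that rose. For those that fell they were then -0.79 and -0.63. The genes were chosen by the DSS fit, which favours large changes after DSS. These medians are therefore no measure of a difference between DSS and water.

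Genes of the BMP axis had the same direction on water. Without the library labelled replicate 1, the log2 fold changes on water were -1.75 for Smad4, -2.32 for Id1, -5.49 for Id3, -1.22 for Id2, 1.65 for Bmp3 and 0.98 for Smoc2. With it they were -0.95, -1.46, -2.49, -0.65, 1.37 and 0.89. Mal (-3.17 without and -2.80 with it), Sult1a1 (-2.45 and -1.91), Cdkn1a (-1.05 and -0.80) and Itga2 (2.11 and 1.98) also kept their sign. Others lay near 0 or on the other side. Npas2 had 0.42 without and 0.41 with that library, Klf6 0.35 and 0.35, Irgm2 0.23 and 0.20, Ceacam20 0.16 and 0.09, Col4a2 -0.54 and -0.42, and Tsnax 1.87 and 1.61. The difference of the genotype effect between DSS and water was tested directly over all 14 libraries, and none of the 155 genes passed in edgeR (0.00661% of all genes did), with 0.638 as the smallest edgeR adjusted p and 27 genes at an unadjusted p below 0.05 (7.46% of all genes). None passed in 13 libraries (0.00663% of all genes), with 0.474 as the smallest edgeR adjusted p and 32 at an unadjusted p below 0.05 (8.45% of all genes). The 155 genes were chosen by their genotype effect after DSS, which is itself a part of this difference. Their counts at an unadjusted p are therefore no test against the shares of all genes. DESeq2 passed 1 of the 155 over 14 libraries (adjusted p = 0.0274, 0.0169% of all genes passed), the ribosomal protein pseudogene Rps25-ps1, whose reads can be shared with the parent gene. The name was chosen after its value was seen, and no gene is called particular to DSS here.

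**Figure D5:**
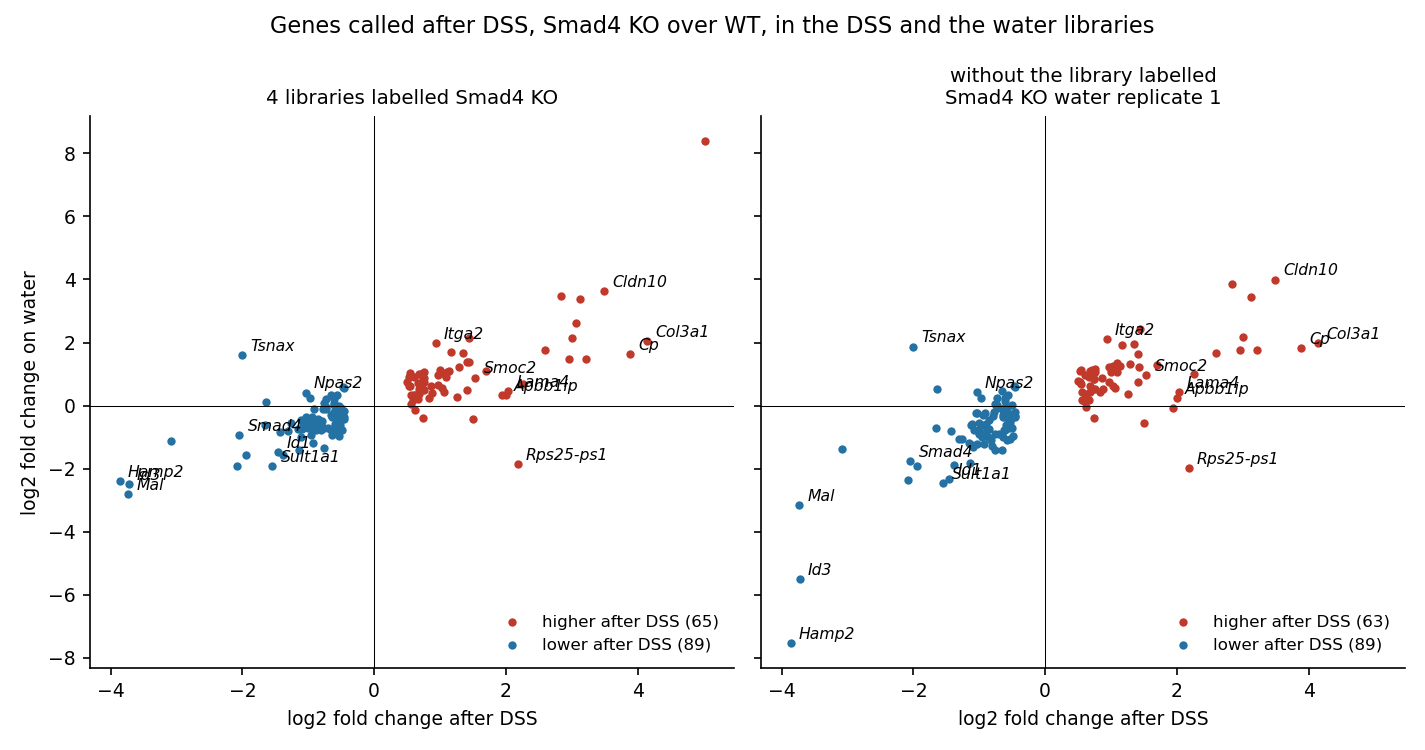
Log2 fold changes of Smad4 KO over WT after DSS (horizontal) and on water (vertical) for the genes called after DSS, red where higher and blue where lower after DSS, with all 4 libraries labelled Smad4 KO on water (left) and without replicate 1 (right). Of the genes that rose 61 of 65 lie above 0 on water in the left panel, and of those that fell 76 of 89 lie below it, while Tsnax and Rps25-ps1 lie on the other side.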

How the data were processed

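Epithelium of the whole colon was profiled by poly(A) RNA-seq in 14 libraries, of which the 6 taken after DSS are compared here. The file the authors deposited holds raw counts for each Ensembl gene, and per the labels' processing notes reads were aligned to mm9 with HISAT2 and counted with featureCounts. Strand setting and annotation are not given in the sources used here. Each column of the count table was matched to a sample by its name, which the labels give as the sample's description. Gene positions are those of the GENCODE annotation of mm9 read with the counts. Depth and mitochondrial share limit the precision of each value, and counting error is part of the spread that the fit estimates. Of 37680 listed genes, 22504 had a count in the 6 libraries, and the 14241 that reached 10 counts in 3 or more of them entered the test.

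Counts were normalized by TMM and tested with edgeR 4.0.16 (R 4.3.3), using the robust quasi-likelihood fit of the 6 libraries alone with genotype as the term, and p-values were adjusted by Benjamini-Hochberg at 0.05. Standard errors of log2 fold changes are the absolute log2 fold change over the root of F. The water libraries were fitted separately, and the difference of the genotype effect between DSS and water in 1 model of all 14 libraries. The study's methods used DESeq2, and DESeq2 1.42.0, limma 3.58.1 with voom, other scalings and filters, the mitochondrial share as a covariate, a replicate block and leaving out each library in turn were run as alternatives. The edgeR fit was run on simulated data with known changes, all of at least 2-fold and in genes with a mean of at least 50 counts. Lower counts and smaller changes were not covered by it. Gene lists (844 genes, 835 of them matched to the table, 617 tested), members and tests were chosen with earlier results of these data known, so a list is described by its counts and median and no set test was run. The genes named are Smad4, the 15 largest changes in each direction among called genes whose mean reached 50 normalized counts, every called member of the lists, the 4 members of each list role with the most counts, a few defining genes such as Lgr5 and Pdgfra, and the 10 called genes outside the lists with the smallest p. Some genes that this rule takes are not reported here. By this rule 6330403L08Rik (higher) and 4833407H14Rik (lower) are named too, and Rps25-ps1 was chosen after its values were seen. So were Smad2, Tgfbi, Ascl2, Cdkn1c, Mxd1, Selenbp1, Oas3, Isg15, Samhd1, Dio3, Dio3os, Cldn10, Angptl2, Kcnk10, Hamp2, Anxa1, Mib1, Afap1l1, Svil and Sema6a. Promoters came from RefSeq sequences of GRCm38.p6 matched by symbol, found for 108 of the 155 called genes, and no share over called genes was computed.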

Additional observations from a re-analysis of the deposited data

Results flagged for a closer look

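One gene differed in its genotype effect between DSS and water. For Rpl34, which encodes a protein of the large ribosomal subunit, the log2 fold change of Smad4 KO over WT was 5.25 higher after DSS than on water (standard error 0.46, edgeR adjusted p = 9.8e-05 over 14 libraries). With replicate 1 of Smad4 KO on water left out, the difference was 5.30 (edgeR adjusted p = 5.4e-04). After DSS, Rpl34 had 6694, 4380 and 5767 normalized counts in WT and 6107, 3116 and 3766 in Smad4 KO, scaled over all 14 libraries. On water it had 4451, 4157, 6482 and 8227 in WT and 129, 97.8, 70.0 and 176 in the libraries labelled Smad4 KO. The 4 libraries labelled Smad4 KO on water, including the one with Smad4 at the WT level, lay far below the other 10. A pseudogene, Rpl34-ps1, is a near copy and could share its reads, and its part in these values was not tested.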

How the results depend on the processing

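Of the 155 genes, all kept their direction under every alternative that tested them. The number called stayed within 1.5 times of 155 with limma voom (141), RLE (154) or upper quartile (157) scaling, TMM without mitochondrial genes (155), a minimum of 50 counts (131) and a fit that is not robust (114). It was 496 with DESeq2 (192 higher and 304 lower), 502 without a filter on low counts (189 and 313), 76 with the mitochondrial share as a covariate (26 and 50), 2 in 1 model of all 14 libraries (1 and 1) and 7 in 13 libraries (1 and 6). The cause was not tested. In the model of 14 libraries the log2 fold change of Smad4 was -2.05 with an edgeR adjusted p of 0.313, and it was called in every other alternative. With 1 library left out, 47 to 123 genes were called, 23 to 49 of them higher and 24 to 74 lower. On water, 17 genes were called without the library labelled Smad4 KO replicate 1, 696 with DESeq2, 54 without a filter and 623 with the replicate block. For the difference between DSS and water, DESeq2 called 4 genes and the fit without a filter 2. With the replicate number as a block, 124 genes were called after DSS (49 higher and 75 lower), 95 of them among the 155. The labels do not say whether equal numbers pair libraries, and correlations from so few libraries per group cannot settle it. Deviations from the group means, for libraries with the same number, correlated at -0.066, -0.091 and -0.042 after DSS. On water they correlated at 0.010, -0.008, -0.025 and 0.364. Not every library correlated best with its own number.

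Genes near 0 that were not called changed sign. Id4 was at 0.0079 with upper quartile scaling, 0.0021 with TMM without mitochondrial genes, 0.0031 with a minimum of 50 counts and 0.067 with the mitochondrial covariate. With that covariate Tgfbr2 was at -0.054 and Pdgfrb at -0.038. With 1 library left out, Smad3 ranged from -0.028 to 0.11, Id4 from -0.30 to 0.20, Tgfbr2 from -0.079 to 0.24, Top2a from -0.17 to 0.077 and Pdgfrb from -0.089 to 0.22.

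Precision is limited by 3 libraries per group and, for collagens, Sparc, Cp and Dio3, by few counts in WT. Genes with under 10 counts in 3 libraries were not tested.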

Other observations

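Called genes outside the lists held a few more that kept their call with each library left out. Slc39a8, a zinc and manganese importer, rose from 1069, 1028 and 1029 normalized counts in WT to 1969.7, 1692 and 1646 in Smad4 KO (log2 fold change 0.76, edgeR adjusted p = 0.0056). Vsig1, a junctional adhesion protein known from gastric epithelium, rose from 396, 391.8 and 387 in WT to 921, 748 and 680.3 in Smad4 KO (log2 fold change 0.9989, edgeR adjusted p = 0.0056), and Rassf4, of a family that binds Ras, from 783, 566 and 574 in WT to 1281, 1325 and 1165 in Smad4 KO (edgeR adjusted p = 0.0074). Capn9, a calpain of the digestive tract, fell from 812, 889 and 809 in WT to 452, 474 and 363 in Smad4 KO (log2 fold change -0.96, edgeR adjusted p = 0.0056), and Sun2, which links the nuclear envelope to the cytoskeleton, from 562, 698 and 733 in WT to 339, 310.1 and 349 in Smad4 KO (log2 fold change -0.9971, edgeR adjusted p = 0.0063). In each of these genes every Smad4 KO library lay outside the range of WT. They were chosen after their values were seen.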
